A study of Mus musculus with 24 samples.

Results

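The expanded arm of a Huntington's disease knock-in series was examined in mouse neural progenitor cells (NPC): 6 small RNA libraries, 2 from each of the lines Q50, Q92 and Q111, out of 24 libraries in all. These libraries were chosen by their labels, leaving out the Q20 line, the wild type (WT) and the Htt knockout (KO). The question was which RNAs rose or fell with the number of CAG repeats once every line compared carried a long repeat. All 3 lines are heterozygous for a Hdh (Htt) knock-in allele, so each keeps a wild-type allele, and they carry 50, 92 and 111 repeats by their titles. The labels give 89 repeats for the Q92 line in the growth protocol. The NPC were derived from embryonic stem cells (mESC) of the same lines and kept in medium with FGF and EGF. Each repeat length is represented by a single line, so the repeat and any other difference of that line cannot be told apart. The labels call the 2 libraries of a line biological samples but name no separate cultures, and p-values therefore measure the spread between these libraries, which may be technical.

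Htt encodes huntingtin, and expansion of its CAG tract causes Huntington's disease. Most counts fell on Y RNAs and on small nucleolar RNAs (snoRNAs), which guide chemical modification of other RNAs. Box C/D snoRNAs (Snord genes) guide ribose methylation and box H/ACA snoRNAs (Snora genes) guide pseudouridylation, mainly of ribosomal RNA, and most vertebrate snoRNAs are cut out of the introns of host genes. Replication-dependent histone genes supply histones during DNA synthesis, and their mRNAs end in a stem-loop instead of a poly(A) tail. Reads from long mRNAs in a small RNA library are fragments of those mRNAs.

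A library held 342022 to 472732 counts, and 11821 genes had a count in at least 1 of the 6. A count of 0 allowed a level of 6.35 to 8.77 CPM (counts scaled to equal library size), taking 3 counts of the library total as the limit, which covers counting error only. The Y RNA Rny1 took 32.6% and 40.3% of the counts in Q50, 21.1% and 23.3% in Q92, then 23.3% and 20.7% in Q111. Replicate 2 of Q50 thus stood apart, and its counts differed from those of replicate 1 by a chi-square of 37.3 per degree of freedom, against 4.00 in Q92 and 7.37 in Q111. The targeted gene Htt had 4 and 1 counts in Q50, 2 and 3 in Q92, then 2 and 0 in Q111, too few to test. Progenitor identity was checked on 17 radial glia and progenitor mRNAs, all of which had a count. Of 14 ES-cell microRNA genes 13 were at 0 in all 6 libraries, as were the neuronal genes Tubb3 and Rbfox3 and the glial genes Gfap and Mog.

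The called slopes were mostly falling snoRNAs and rising histone genes. Of 353 genes tested, 15 (4.25%) had a slope on repeat number that passed an adjusted p of 0.05 (edgeR quasi-likelihood test, Benjamini-Hochberg), 4 rising and 11 falling. The rising genes were Snora21 and 3 histone genes, Hist1h2bh, Hist1h3b and Hist1h2bk. The falling genes were 8 intron-encoded box C/D snoRNAs, the microRNA gene Mir181a-2, the snRNA gene Gm25360 and Kif21b, which encodes a kinesin motor. Slopes are on the log2 scale per 10 repeats, and a fold over the range from 50 to 111 repeats is the fitted slope carried over 61 repeats. The number called depends on what counts as spread: 62 genes passed in a fit of all 12 NPC libraries by group, and 89 with the spread taken within lines, a setting chosen after seeing the data. Scaled by library totals instead of TMM, the split was 8 rising and 6 falling. Without replicate 2 of Q50 no gene was called, without replicate 1 of Q50 3 were, and without replicate 1 or 2 of Q111 6 and 8. The sign of all 15 slopes was the same with each library left out. These genes were picked for their slope in the same libraries, and Q50 and Q111 did not overlap in any. Leaving out a library could thus hardly change the sign, and nothing is read from it. Over all other settings in which a gene was fitted, the call was lost in 2 of 18 for Snora21 and for Gm22858, in 9 of 18 for Snord34, in 8 of 18 for Gm25360, and in 6 of 16 for Kif21b. For Hist1h2bh and Hist1h2bk it was lost in 7 of 17 and for Hist1h3b in 6 of 17.

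**Figure D1:**
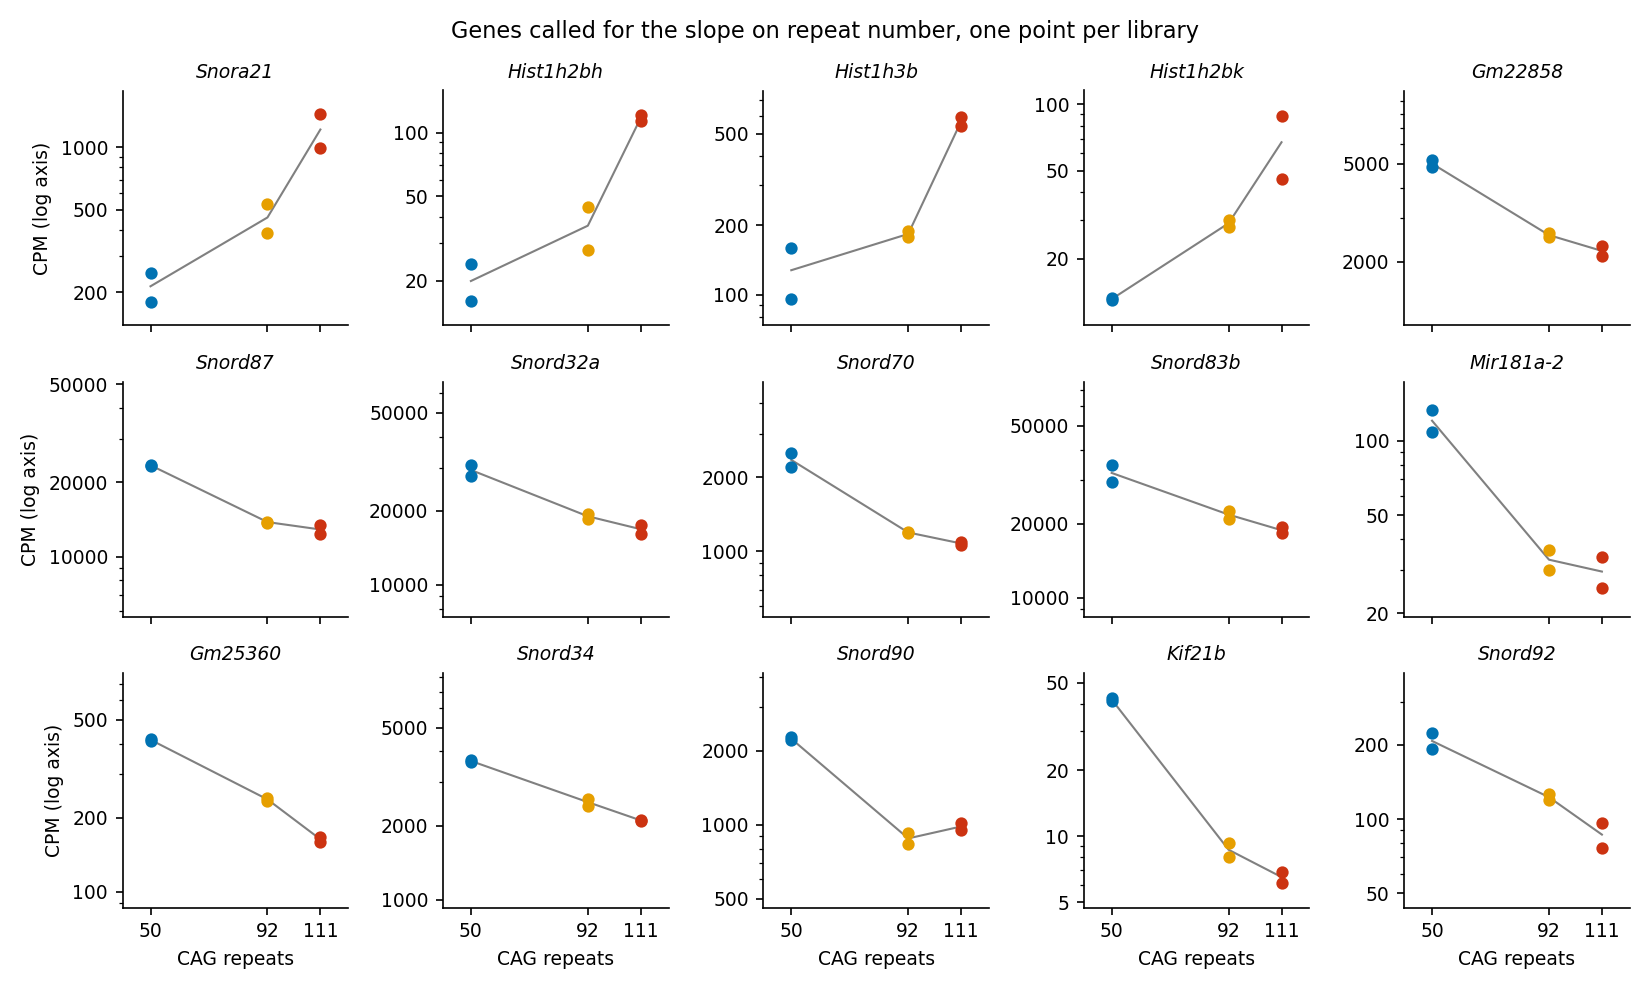
CPM in each library (log axis) against CAG repeats for the 15 genes called for the slope; points are single libraries and the grey line joins the means of the lines. The first 4 panels rise, with their largest values at 111 repeats. In most of the 11 falling genes the larger drop is between 50 and 92 repeats, which is also the longer step.

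The transcripts of the 8 falling box C/D snoRNAs are shown because they make up most of the falling genes and come from 6 host genes. Letters are from the GRCm38 genome with GENCODE M21 positions, 5′ to 3′, with the C box letters TGATGA (searched in the first 20 bases) and the D box letters CTGA (searched in the last 20) in capitals, on the transcript strand only.
Snord87 (chr1:9942463-9942549, minus strand, intron of Snhg6): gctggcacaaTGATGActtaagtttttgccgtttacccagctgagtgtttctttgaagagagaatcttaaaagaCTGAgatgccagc
Snord32a (chr7:45127382-45127464, minus strand, intron of Rpl13a): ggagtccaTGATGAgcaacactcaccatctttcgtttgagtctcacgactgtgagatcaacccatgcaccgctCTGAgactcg
Snord34 (chr7:45126601-45126670, minus strand, intron of Rpl13a): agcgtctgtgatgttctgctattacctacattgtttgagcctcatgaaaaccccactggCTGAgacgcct
Snord83b (chr15:80078498-80078591, minus strand, intron of Rpl3): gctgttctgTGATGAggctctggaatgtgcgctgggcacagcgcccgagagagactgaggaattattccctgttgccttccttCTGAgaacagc
Snord70 (chr1:59691934-59692020, plus strand, intron of Nop58): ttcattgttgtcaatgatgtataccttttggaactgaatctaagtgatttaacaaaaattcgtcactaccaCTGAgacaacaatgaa
Snord90 (chr2:37400047-37400157, minus strand, intron of Rc3h2): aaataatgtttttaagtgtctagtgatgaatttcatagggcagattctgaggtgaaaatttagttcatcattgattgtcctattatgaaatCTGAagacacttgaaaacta
Snord92 (chr17:71631281-71631365, plus strand, intron of Wdr43): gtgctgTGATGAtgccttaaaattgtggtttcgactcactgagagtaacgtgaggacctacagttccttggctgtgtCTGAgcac
Gm22858 (chr17:71641584-71641659, plus strand, intron of Wdr43): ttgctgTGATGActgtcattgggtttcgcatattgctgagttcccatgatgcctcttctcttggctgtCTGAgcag
Both boxes were found in 5 of these 8 and in 68.69% of the 99 annotated Snord genes, so the search did not set the 8 apart. The 3 others, Snord34, Snord70 and Snord90, lack the letters TGATGA in that window. Transcripts of the 7 falling genes with a Snord symbol had a median length of 87 bases against 73.5 for the 34 uncalled ones, with a median GC content of 48.24% and 45.94%. None of the 8 transcripts shares a stretch of 30 bases with another annotated gene.

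Snord87, from the noncoding host Snhg6, had 23333 and 23619.8 CPM in Q50, 13865 and 13732 in Q92, then 12375 and 13374 in Q111. Both Q50 libraries lay above the other 4, and the 3 lines did not overlap. The slope was -0.15 ± 0.02 (SE, edgeR adjusted p 0.00856), a 1.87-fold fall over the range. Most of it lay in the first step: Q92 was 1.70-fold below Q50 (edgeR adjusted p 3.45e-05), while Q111 against Q92 did not pass (log2 -0.10 ± 0.08, edgeR adjusted p 0.363). That step spans 68.9% of the range of repeats. The departure of Q92 from a straight line between Q50 and Q111 did not pass (log2 -0.17 ± 0.07, edgeR adjusted p 0.0873), so a plateau after Q92 is not shown.

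Gm22858 lies in an intron of Wdr43, a gene for small ribosomal subunit assembly with 3 counted snoRNAs. It had 4843 and 5178 CPM in Q50, 2511 and 2624 in Q92, then 2315 and 2115 in Q111. The levels fell at both steps without overlap. Its slope was -0.20 ± 0.03 (SE, edgeR adjusted p 0.00856), a 2.32-fold fall over the range, and it stayed called in 16 of the 18 other settings it was fitted in. Snord92, upstream in the same host, had 103 and 72 counts in Q50, 64 and 63 in Q92, then 25 and 42 in Q111. It also fell without overlap (slope -0.20 ± 0.05, edgeR adjusted p 0.0447), but the call was lost in 13 of 18 settings. Snord53, the remaining one, was highest in Q111. It had 2799 and 3095 CPM in Q50, 2774 and 2932 in Q92, then 3254 and 3649 in Q111. Its slope did not pass (0.03 ± 0.03, edgeR adjusted p 0.612).

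Rpl13a, a ribosomal protein gene, hosts Snord32a, Snord34 and Snord35a. Snord32a had 27800.4 and 30847 CPM in Q50, 18599 and 19427 in Q92, then 16144 and 17549 in Q111. Snord34 had 3704 and 3615, then 2575 and 2405, then 2112 and 2085 CPM in the same order. Both fell at each step without overlap, with slopes of -0.13 ± 0.02 for each (edgeR adjusted p 0.00856 and 0.0166). Snord35a had a slope of -0.15 ± 0.04 that did not pass (edgeR adjusted p 0.0616). The calls of Snord32a and Snord34 were lost with library totals (edgeR adjusted p 0.084 and 0.185).

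Rpl3, another ribosomal protein gene, hosts Snord83b and Snord43. Snord83b had 29658 and 34722 CPM in Q50, 20993 and 22606 in Q92, then 18268 and 19409 in Q111, a slope of -0.13 ± 0.02 (edgeR adjusted p 0.01). The 3 lines did not overlap. Snord43 had 20992 and 20026, then 19642 and 20626, then 22221 and 24991 CPM, and its slope did not pass (0.03 ± 0.02, edgeR adjusted p 0.552). With library totals the call of Snord83b was lost (edgeR adjusted p 0.108).

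Nop58 encodes a core protein of box C/D particles and hosts Snord70, Snord11 and Gm26287. Snord70 had 2202 and 2504 CPM in Q50, 1199 and 1189 in Q92, then 1093 and 1061 in Q111. It fell 2.26-fold over the range (slope -0.19 ± 0.03, edgeR adjusted p 0.00856), with 1.97-fold of the fall in the first, longer step. Its departure from a straight line did not pass (log2 -0.20 ± 0.10, edgeR adjusted p 0.132). Snord11 and Gm26287 had slopes of -0.14 ± 0.04 and -0.17 ± 0.06 that did not pass (edgeR adjusted p 0.0869 and 0.128). Snord90, in an intron of the E3 ligase gene Rc3h2, was lowest in Q92, not in Q111. It had 2269.5 and 2200.3 CPM in Q50, 838 and 922 in Q92, then 952 and 1015 in Q111. Its slope of -0.21 ± 0.04 passed (edgeR adjusted p 0.0166), and so did its departure from a straight line (log2 -0.53 ± 0.10, edgeR adjusted p 0.00259). The host transcripts could not be compared, since Snhg6, Wdr43, Rpl13a, Rpl3 and Nop58 had between 7 and 20 counts over all 6 libraries. Rc3h2 had 41, with a slope of 0.02 ± 0.14 (edgeR adjusted p 0.952).

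Over all 41 box C/D genes tested with a Snord symbol, 7 were called as falling and 0 as rising, against 3.12% and 1.13% of all tested genes. The median slope was -0.04, and 0.00 over all tested genes. Under DESeq2 size factors 6 fell and 0 rose, and under library totals 3 fell and 2 rose.

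Mir181a-2 belongs to a microRNA family that is abundant in brain. It had 50 and 50 counts in Q50, 16 and 18 in Q92, then 11 and 11 in Q111, which is 108 and 133, 29.8 and 36.1, and 33.7 and 25.3 CPM. Q50 lay above both other lines, whose ranges overlapped. The slope was -0.36 ± 0.06 (SE, edgeR adjusted p 0.0112), a 4.58-fold fall over the range. The mature products are shown with the seed, bases 2 to 8, in capitals, because the 5p strand is shared by the other Mir181a gene (RefSeq sequences, GRCm38.p6, 5′ to 3′).
mmu-miR-181a-5p (from chr2:38852741-38852763 and chr1:137966468-137966490): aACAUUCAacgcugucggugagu
mmu-miR-181a-2-3p (chr2:38852785-38852806): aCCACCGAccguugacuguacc
mmu-miR-181a-1-3p (chr1:137966508-137966529): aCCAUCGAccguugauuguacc
Mir181a-1 had 158 and 218 counts in Q50, 64 and 55 in Q92, then 82 and 91 in Q111. It was lowest in Q92, 3.99-fold below Q50 and rising 1.99-fold from there to Q111 (edgeR adjusted p 0.000101 and 0.0184), and its slope did not pass (-0.20 ± 0.08, edgeR adjusted p 0.203). Which strand or precursor the reads came from is not given, and reads of the identical 5p strand cannot be placed on either gene. Of 15 microRNA genes tested, 1 was called for the slope (4.25% of all genes), and 5 were lower in Q92 than in Q50 (19.5% of all genes). The slope count is near the share over all genes.

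Kif21b (chr1:136131389-136177998) had 19 and 16 counts in Q50, 5 and 4 in Q92, then 2 and 3 in Q111. The lines did not overlap, but the Q111 level rests on 5 counts. The slope was -0.47 ± 0.09 (SE, edgeR adjusted p 0.0166). Gm25360 (chr1:72226240-72226430) fell at both steps, from 419 and 410.2 CPM in Q50 to 240.1 and 235 in Q92 and to 159 and 168 in Q111. The slope was -0.21 ± 0.04 (SE, edgeR adjusted p 0.0149). It shares 63.0% of its 30-base stretches with 39 other annotated genes, so its counts may be those of other copies.

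Snora21 is a box H/ACA snoRNA in an intron of the ribosomal protein gene Rpl23. It had 83 and 93 counts in Q50, 207 and 266 in Q92, then 324 and 630 in Q111, which is 180.1 and 248, 385 and 533, and 992 and 1447 CPM. The 3 lines did not overlap. The slope was 0.39 ± 0.06 (SE, edgeR adjusted p 0.00856), a 5.30-fold rise over the range, and both steps passed: 2.16-fold from Q50 to Q92 and 2.67-fold from Q92 to Q111 (edgeR adjusted p 0.0038 and 0.000353). The departure from a straight line also passed, with Q92 below the line between Q50 and Q111 (log2 -0.63 ± 0.19, edgeR adjusted p 0.0256). The transcript is shown with its ACA box in capitals (GRCm38, 5′ to 3′).
Snora21 (chr11:97781639-97781775, minus strand): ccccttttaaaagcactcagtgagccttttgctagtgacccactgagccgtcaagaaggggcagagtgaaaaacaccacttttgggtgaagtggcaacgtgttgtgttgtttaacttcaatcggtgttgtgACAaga
It shares 30.6% of its 30-base stretches with Gm23795, so the 2 genes cannot be fully separated. Of the 9 Snora genes tested it alone had a positive slope, and the list's median was -0.05. Outside the 6 libraries, on a scaling over all 12 NPC libraries, Snora21 stood at 248 and 568 CPM in KO, 255 and 271 in WT, and 214 and 219 in Q20. Both Q111 libraries, at up to 1537 CPM on that scale, lay above all of these.

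Replication-dependent histone genes were highest in Q111. Of 70 annotated genes 55 had a count and 11 were tested. All 11 had a positive slope (median 0.33), and 3 were called as rising, against 1.13% of all genes tested. Some low genes passed the count filter through their Q111 libraries alone, such as Hist1h3g with 4 and 2, 3 and 4, then 8 and 15 counts. The filter thus favoured a rise among the genes tested, and nothing is read from all 11 rising. Hist1h3b encodes a core histone H3; Hist1h2bh and Hist1h2bk encode H2B. Summed over all 70 listed genes, tested or not, the level was 341 and 565 CPM in Q50, 704 and 657 in Q92, then 1595 and 1449 in Q111.

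Hist1h3b (chr13:23752267-23752886) had 95.5 and 159.8 CPM in Q50, 179 and 188 in Q92, then 594 and 539.6 in Q111. Q111 was 3.08-fold above Q92 (edgeR adjusted p 0.000122), while Q92 against Q50 did not pass (log2 0.54 ± 0.23, edgeR adjusted p 0.0862). The slope was 0.33 ± 0.07 (SE, edgeR adjusted p 0.0417), and the departure from a straight line was -0.95 ± 0.19 (edgeR adjusted p 0.00288). Hist1h2bh (chr13:23541714-23543392) had 11 and 6 counts in Q50, 24 and 14 in Q92, then 37 and 53 in Q111, a slope of 0.41 ± 0.09 (edgeR adjusted p 0.0338). Its departure from a straight line passed too (log2 -0.89 ± 0.29, edgeR adjusted p 0.0305). Hist1h2bk (chr13:22035870-22036345) had 6 and 5, 15 and 15, and 29 and 20 counts, a slope of 0.38 ± 0.08 (edgeR adjusted p 0.0428). For Hist1h2bk the departure did not pass (log2 -0.45 ± 0.35, edgeR adjusted p 0.340). In all 3 genes the lines did not overlap. In the order named, they share 62.1%, 29.9% and 75.4% of their 30-base stretches with other genes, so each is uncertain as a single gene.

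Between Q111 and Q92, 7 of the 11 histone genes were called higher and 0 lower, against 14.2% and 12.2% of all genes tested. Between Q111 and Q50 all 11 were called higher, against 11.6% of all genes, with log2 changes of a median of 2.03. In both comparisons the filter favoured higher calls in Q111 for the genes that passed it through Q111 alone. Between Q92 and Q50 none was called by edgeR, with 9 positive values and a median of 0.54, and under library totals 5 were called higher. Leaving out single libraries gave 2 to 10 called between Q111 and Q92, the lowest number without replicate 2 of Q92. It gave 6 to 11 between Q111 and Q50, with 6 without either Q111 library. For the slope, no histone gene was called without either Q50 or either Q111 library. Of 16 cell-cycle mRNAs listed, 2 were tested, Ccnd1 (cyclin D1) and Top2a (a DNA topoisomerase of dividing cells), and neither was called at a step or for the slope. The 16 together stood at 95.5 and 71.9 CPM in Q50, 134 and 130.3 in Q92, then 202 and 135 in Q111, with 27 to 72 counts a library. Their part in the histone change was not tested. Of the 9 histone mRNA processing factors listed, none reached the counts needed for a test. Fewer cells of a type and less RNA per cell cannot be told apart in these bulk libraries.

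The same genes also varied in the other NPC lines. On the scaling over all 12 NPC libraries, Hist1h3b stood at 50.1 and 233 CPM in KO, 55.0 and 201 in WT, and 40.3 and 53.0 in Q20. In both KO and WT all 4 genes with a rising slope were higher in replicate 2, by 4.64-fold in KO and 3.66-fold in WT for Hist1h3b. The summed histone level differed 2.11-fold between the KO replicates and 2.46-fold between the WT replicates, against 1.61-fold, 1.13-fold and 1.07-fold in Q50, Q92 and Q111. Both Q111 libraries lay above all 6 WT, KO and Q20 libraries in each of the 4 rising genes, as in 11.6% of all genes tested. Of the 11 falling genes, 9 had both Q50 libraries above all 6 WT, KO and Q20 libraries, and 8 had both Q111 libraries below all of them, against 13.6% and 10.5% of all genes tested. These genes were called on their Q50 and Q111 levels, so nothing is read from those counts.

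**Figure D2:**
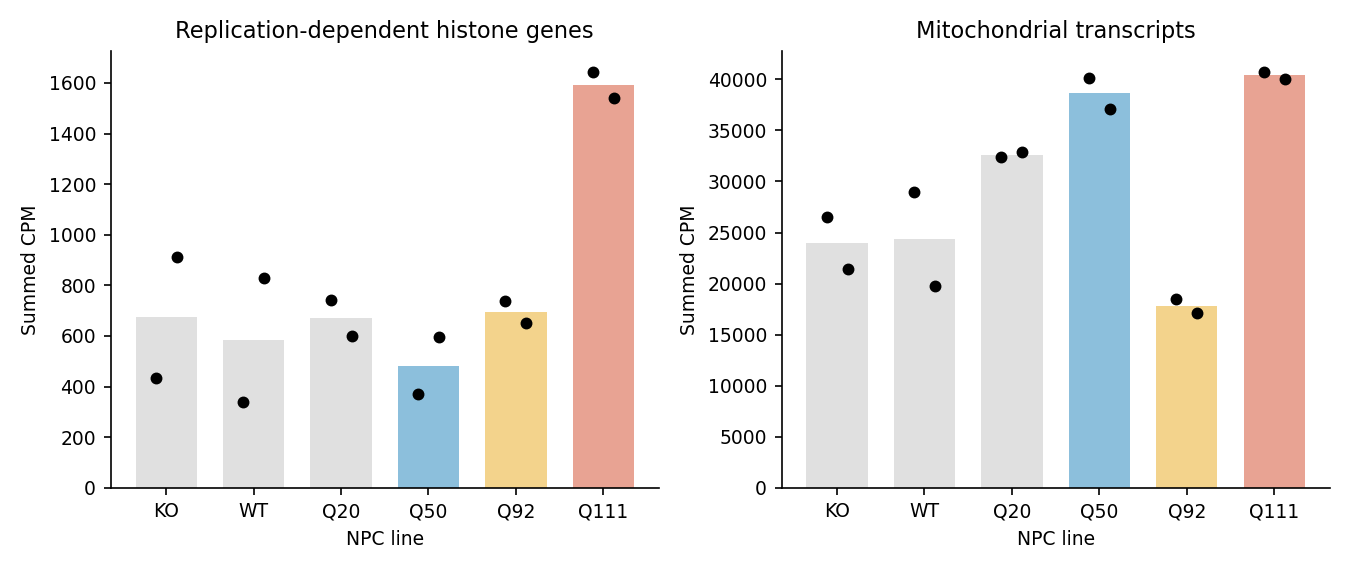
Summed CPM of the replication-dependent histone genes (left) and the mitochondrial transcripts (right) in the 12 NPC libraries, scaled over all 12; bars are means of the 2 libraries of a line and points the libraries. Histones are highest in both Q111 libraries, and the KO and WT replicates differ 2.11-fold and 2.46-fold; mitochondrial transcripts are lowest in Q92 among the expanded lines.

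The promoters of the 3 called histone genes are shown because these genes rose together (RefSeq start sites, GRCm38.p6, 250 bases before to 50 after the start, 5′ to 3′ on the gene's strand). Capitals mark the letters CCAAT of the CCAAT box, the letters TATAAA of the TATA box, and the octamer ATTTGCAT, with both strands searched. A match on the other strand appears as ATTGG for the CCAAT box or as TTTATA for the TATA box.
Hist1h3b (chr13:23752095-23752394, plus strand): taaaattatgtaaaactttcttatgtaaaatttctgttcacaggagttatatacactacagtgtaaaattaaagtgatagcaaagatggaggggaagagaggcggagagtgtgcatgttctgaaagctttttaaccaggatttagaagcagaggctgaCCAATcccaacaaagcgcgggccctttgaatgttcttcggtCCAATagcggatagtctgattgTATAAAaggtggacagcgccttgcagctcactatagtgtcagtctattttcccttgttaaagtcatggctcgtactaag
Hist1h2bh (chr13:23543395-23543694, minus strand): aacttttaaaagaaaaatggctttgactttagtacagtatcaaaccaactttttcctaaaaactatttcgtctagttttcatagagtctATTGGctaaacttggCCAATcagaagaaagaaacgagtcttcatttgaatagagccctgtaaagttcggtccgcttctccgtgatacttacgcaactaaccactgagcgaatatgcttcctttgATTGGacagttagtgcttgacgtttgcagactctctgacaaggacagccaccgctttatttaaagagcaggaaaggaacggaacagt
Hist1h2bk (chr13:22035571-22035870, plus strand): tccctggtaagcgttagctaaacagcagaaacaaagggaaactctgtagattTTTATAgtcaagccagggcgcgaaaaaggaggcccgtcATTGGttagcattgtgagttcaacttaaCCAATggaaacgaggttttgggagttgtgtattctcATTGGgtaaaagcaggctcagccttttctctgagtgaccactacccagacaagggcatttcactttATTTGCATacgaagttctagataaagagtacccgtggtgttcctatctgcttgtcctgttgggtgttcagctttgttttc
Of the 11 tested histone genes, 9 have CCAAT in this window, 4 have TATAAA and 1 has ATTTGCAT. Over all 32851 promoters of the table, the shares are 37.41%, 13.62% and 1.735%. A match is a description of letters and not a bound site.

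Many genes departed from a straight line on the repeat number. The first principal component, with 45.4% of the variance, set Q92 apart from Q50 and Q111. The second, with 32.6%, separated Q50 from Q111, with Q92 between them. With 3 lines this order follows once the first component sets Q92 apart, so nothing about repeat number is read from it. When the 3 lines were fitted as a factor, 134 of 353 genes (38.0%) differed between Q92 and Q50, 65 higher and 69 lower, and 93 (26.3%) between Q111 and Q92, 50 higher and 43 lower. Departure from a straight line was called for 137 genes (38.8%), 72 (20.4%) with Q92 above the line between Q50 and Q111 and 65 (18.4%) below it. The slope fit takes these departures as spread: its biological coefficient of variation was 29.6%, and that of the fit by line was 9.41%. The number called for the slope in the main fit is thus not on a like footing with the 137. The like number is the larger one given above for the spread taken within lines. A called departure does not exclude a trend. Genes with a large departure were harder to call in the slope fit, and 4 genes were called for both. By edgeR, 54 genes passed at both steps, and in 52 of them the steps ran in opposite directions, 27 up and then down and 25 down and then up. Snora21 rose at both and Gm25360 fell at both. Q92 enters the steps with opposite signs, so errors in Q92 push them in opposite directions. The count filter also favours a peak in Q92 among low genes. Nothing about repeat number is read from the share of opposite steps.

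**Figure D3:**
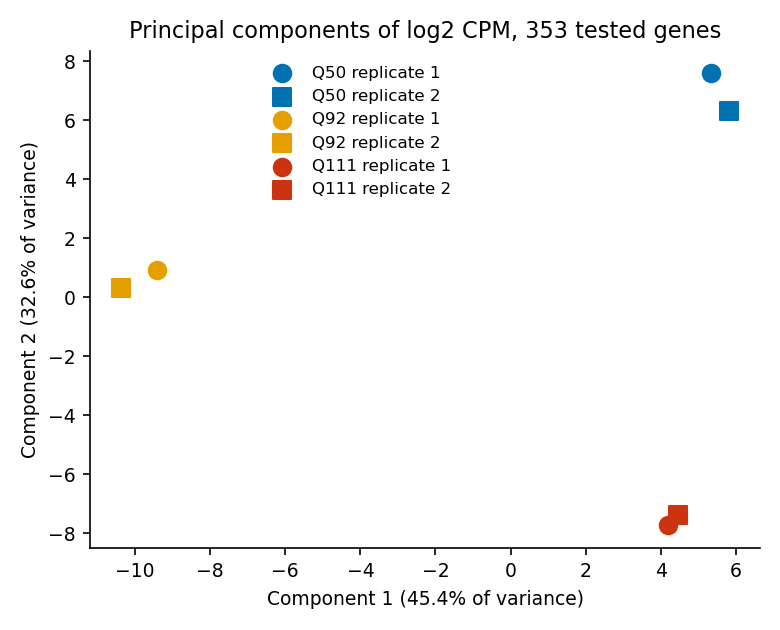
First and second principal components of log2 CPM of the 353 tested genes in the 6 libraries; circles are replicate 1 and squares replicate 2. Both Q92 libraries lie apart from the other 4 on the first component, and the second separates Q50 from Q111 with Q92 between them.

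In CPM, the lines did not overlap and Q92 was highest in 92 genes (26.1%), or lowest in 65 (18.4%). The lines rose at both steps without overlap in 19 genes (5.38%) and fell in 17 (4.82%). Under library totals the median log2 change over the 353 genes went from 0.15 to 0.57 between Q92 and Q50 and from -0.10 to -0.40 between Q111 and Q92. They gave 136 higher and 33 lower genes at the first step, 32 and 106 at the second, and 132 above and 28 below the straight line. With DESeq2 size factors the second step gave 63 and 37. Opposite steps made up 82 of the 91 genes called at both under library totals, where the shared Q92 acts in the same way. Without replicate 2 of Q92, 65 genes were called at the first step and 39 at the second, and without replicate 1 of Q92 these were 82 and 53.

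**Figure D4:**
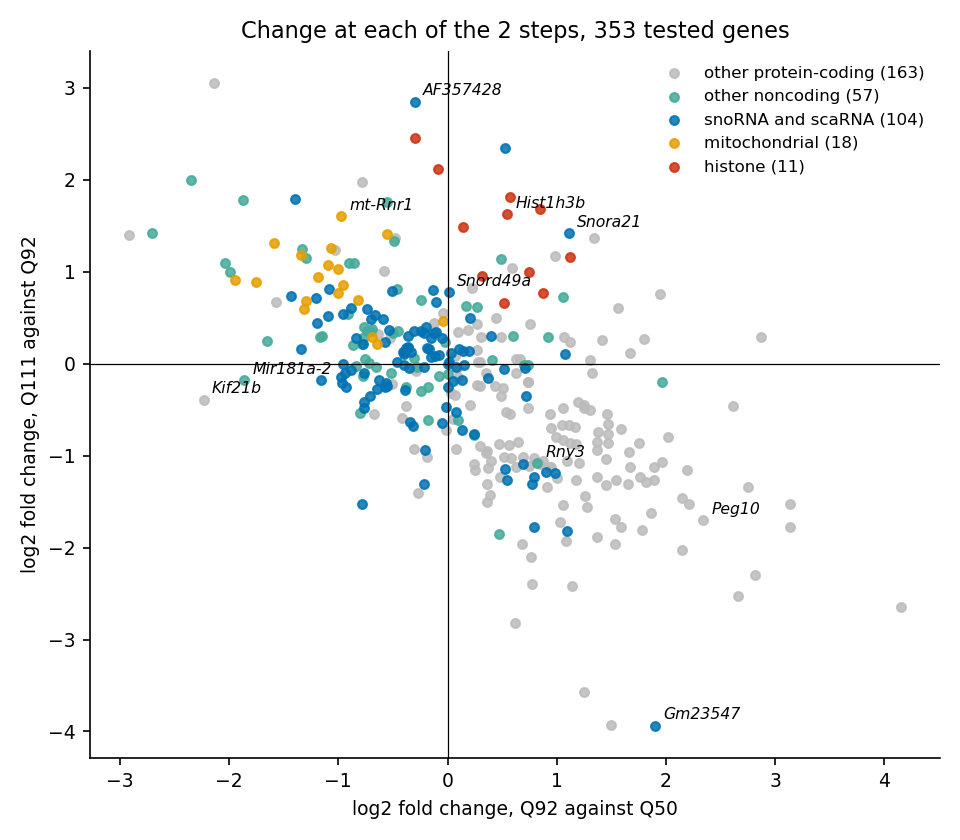
Log2 fold change of Q111 against Q92 (vertical) against that of Q92 against Q50 (horizontal) for the 353 tested genes, coloured by class. Both axes hold Q92, so errors in Q92 push points towards the falling diagonal; histone genes lie at positive values of the vertical axis, mitochondrial transcripts at upper left and most other protein-coding genes at lower right.

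Mitochondrial transcripts were lowest in Q92. Of 18 tested, 16 were called lower in Q92 than in Q50 and 0 higher, against 19.5% and 18.4% of all genes, and 11 were called higher in Q111 than in Q92, against 14.2%. In 17 of the 18 both Q92 libraries lay below the other 4, against 18.4% of all genes. Summed over the list, the level was 37019.5 and 35167 CPM in Q50, 17665 and 17278 in Q92, then 39525 and 37656 in Q111. No mitochondrial transcript was called for the slope, with a median of -0.06 and 3 positive values. The direction at both steps held under DESeq2 size factors, and under library totals 11 were lower in Q92 than in Q50 and 7 higher in Q111 than in Q92. Without replicate 1 or 2 of Q111, 7 were called higher at the second step in each case.

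mt-Rnr1 and mt-Rnr2 encode the ribosomal RNAs of the mitochondrial ribosome. mt-Rnr1 had 7600.5 and 6915 CPM in Q50, 3697 and 3680.2 in Q92, then 11585 and 10798 in Q111. It fell 1.97-fold at the first step and rose 3.03-fold at the second (edgeR adjusted p 1.2e-05 and 2.94e-07). mt-Rnr2 had 17397 and 17656, then 8909.6 and 8583, then 18629.6 and 17057 CPM, and its ranges in Q50 and Q111 overlapped. mt-Ts2, a serine tRNA, was 3.37-fold lower in Q92 than in Q50 and then 1.84-fold higher in Q111 (edgeR adjusted p 2.05e-07 and 5.25e-05), with 3647 and 3740.0 CPM in Q50, 1117 and 1076 in Q92, then 2021 and 2023 in Q111. mt-Nd2, which encodes a subunit of respiratory complex I, had 343 and 456, then 115 and 90.2, then 193 and 195 CPM. The nuclear pseudogene Gm28438 shares 99.1% of its 30-base stretches with mt-Nd3 and followed the same course, 4.11-fold lower in Q92 than in Q50. It cannot be separated from the mitochondrial gene.

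Fragments of nuclear protein-coding mRNAs took the opposite course. Of 163 tested without the histones, 53 were called higher in Q92 than in Q50 and 4 lower, and 5 were higher and 31 lower in Q111 than in Q92. Over all genes these shares were 18.4% and 19.5% at the first step, and 14.2% and 12.2% at the second. In 81 (49.7%) both Q92 libraries lay above the other 4, against 26.1% of all genes. Their median log2 change was 0.88 at the first step and -0.80 at the second, against 0.15 and -0.10 over all genes tested. Their level was low, with a median of 20.2 CPM, and some passed the count filter through their Q92 libraries alone. Rc3h2, for example, had 5 and 5 counts in Q50, 12 and 11 in Q92, then 1 and 7 in Q111. The filter thus favoured a peak in Q92 among these genes, and how much of the counts above it made was not tested. Without replicate 1 or 2 of Q92, 26 and 14 were called higher at the first step, and at the second step 14 and 7 lower. Without replicate 2 of Q111, 9 were lower at the second step, and without replicate 1 or 2 of Q50, 54 and 49. The same libraries had more genes with a count, 6688 and 6540 in Q92 against 5468 and 5083 in Q50 and 5302 and 5781 in Q111. The share of counts on nuclear protein-coding genes was 6.75% and 6.57% in Q92 against 4.27% and 3.93% in Q50 and 5.21% and 5.04% in Q111. These shares move with the single genes, and how far fragments of mRNA in general account for them was not tested.

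Peg10, an imprinted gene derived from a retrotransposon, had 15.2 and 18.6 CPM in Q50, 80.0 and 92.2 in Q92, then 27.6 and 25.3 in Q111. It was 5.06-fold higher in Q92 than in Q50 (edgeR adjusted p 0.000255) and fell 3.25-fold to Q111 (edgeR adjusted p 0.00149). Nedd4, an E3 ubiquitin ligase gene, followed the same course with 10 and 15, 63 and 51, and 11 and 16 counts. Plk2, a polo-like kinase gene, had 4 and 2 counts in Q50, 27 and 20 in Q92, then 12 and 13 in Q111. Its second step did not pass (log2 -0.46 ± 0.33, edgeR adjusted p 0.297). The 5 coding genes called higher in Q111 than in Q92, named after their values were seen, were Sf3b3 (a splicing factor subunit), Eif4a1 (a translation initiation helicase), Atp9a (a P4-type ATPase), Arpc1b (an actin nucleation subunit) and Igfbp3 (a binding protein of insulin-like growth factors). The first 4 differed by log2 values of 1.17 ± 0.40 for Eif4a1 to 1.98 ± 0.28 for Atp9a. Igfbp3 rests on 2 and 2 counts in Q92 against 11 and 15 in Q111. Splicing was the stated subject of the series. Of 7 splicing factor mRNAs tested, 0 were called for the slope and 2 were called higher in Q92 than in Q50, against 18.4% of all genes and 53 of the 163 coding genes: Hnrnpa2b1 (log2 1.59 ± 0.39, edgeR adjusted p 0.00726) and Srsf1 (log2 1.75 ± 0.54, edgeR adjusted p 0.0241). Hnrnpa2b1 had 9 and 4 counts in Q50, 24 and 25 in Q92, then 8 and 14 in Q111.

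**Figure D5:**
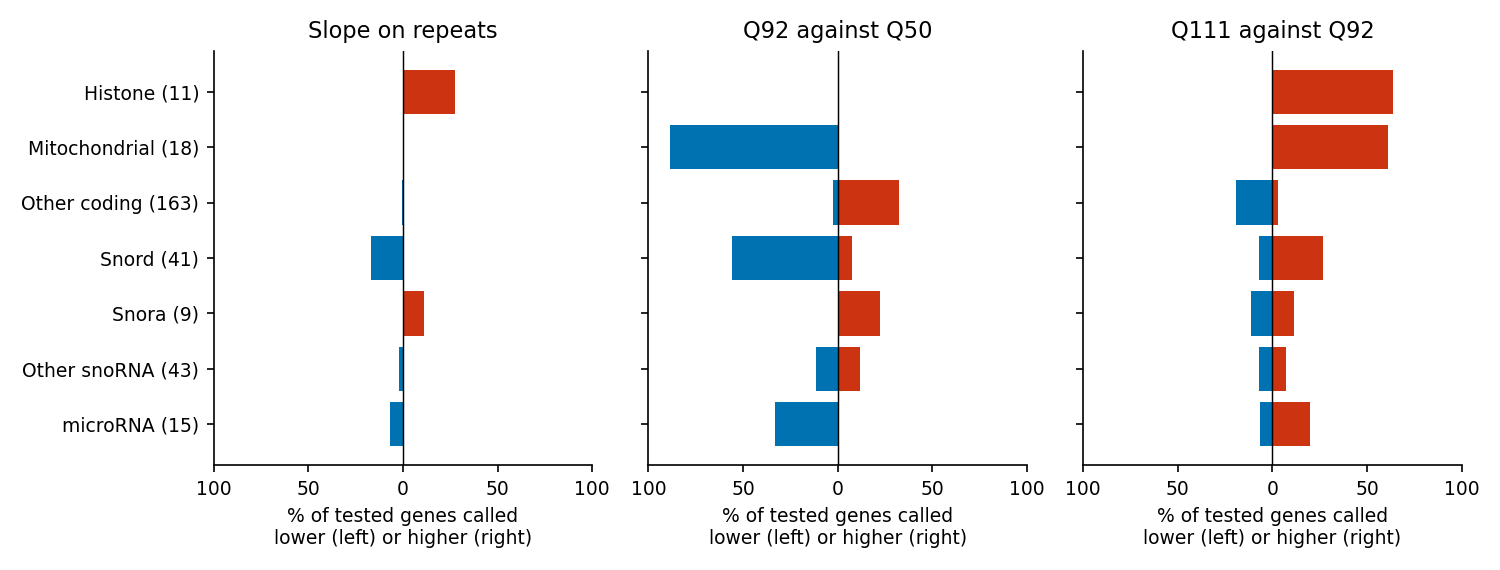
Share of the tested genes of each class that was called higher (right, red) or lower (left, blue) for the slope and for each step, with the number tested in brackets. Histone genes are called only as higher, mitochondrial transcripts are lower at the first step and higher at the second, and other protein-coding genes are mostly higher and then lower.

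Box C/D snoRNAs changed in both directions at the second step. Of the 41 Snord genes, 3 were called higher and 23 lower in Q92 than in Q50, and 11 higher and 3 lower in Q111 than in Q92 by TMM, while library totals reversed the balance, with 11 higher and 5 lower at the first step and 6 and 11 at the second. By TMM, 18.4% of all genes were higher and 19.5% lower at the first step, and 14.2% and 12.2% at the second. Without replicate 1 or 2 of Q92, 10 and 15 were lower at the first step. At the second step, 6 and 5 were higher without replicate 1 or 2 of Q92, and 7 and 5 without replicate 1 or 2 of Q111. The snoRNAs of the noncoding host 2410006H16Rik rose together in Q111 and are shown with the same boxes in capitals, for comparison with the falling ones.
Snord49a (chr11:62603450-62603521, plus strand): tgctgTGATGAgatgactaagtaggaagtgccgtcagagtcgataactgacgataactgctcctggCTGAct
Snord65 (chr11:62604515-62604586, plus strand): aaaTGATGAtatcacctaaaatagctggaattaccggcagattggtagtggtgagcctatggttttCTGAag
Snord49a had 63359.7 and 63574 CPM in Q50, 62188 and 65809.9 in Q92, then 108324 and 111450.0 in Q111. Q92 against Q50 did not pass (log2 0.01 ± 0.08, edgeR adjusted p 0.902), and it was 1.72-fold higher in Q111 than in Q92 (edgeR adjusted p 2.33e-05). Snord65 rose 1.75-fold at that step (edgeR adjusted p 2.55e-05), and Snord49b, the third snoRNA of the host, by 0.67 ± 0.09 on the log2 scale (edgeR adjusted p 0.000256). None of the 3 was called for the slope, with edgeR adjusted p of 0.112, 0.221 and 0.268. Snord71, in an intron of Ap1g1, went down and then up, with 3582 and 3412 CPM in Q50, 1525 and 1507 in Q92, then 2504 and 2453 in Q111.

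Other small RNAs peaked in Q92. Rny3, a Y RNA that binds the Ro protein, had 1998 and 2413 CPM in Q50, 3632 and 4139 in Q92, then 1932 and 1752 in Q111. It rose 1.76-fold and fell 2.11-fold (edgeR adjusted p 0.000329 and 5.02e-05). Rny1, transcribed from the same region, was 2.24-fold lower in Q92 than in Q50 (edgeR adjusted p 0.000154), the direction opposite to Rny3. Snora62, in an intron of Rpsa, had 217 and 208 CPM in Q50, 370.5 and 367 in Q92, then 110.2 and 106 in Q111. Snord93 and Gm23136, the latter in an intron of Rpl4, fell 2.14-fold and 3.53-fold from Q92 to Q111 (edgeR adjusted p 5.87e-05 and 0.000147). Gm23547 fell 15.3-fold at that step, from 100 and 72 counts to 5 and 3, but its exon overlaps an exon of Phb2 and shares 52.1% of its 30-base stretches with it.

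Gm26917, a locus that resembles ribosomal RNA, had 55592 and 68779 CPM in Q50, 68309 and 71292 in Q92, then 107250.0 and 108070.0 in Q111. Its second step passed (log2 0.63 ± 0.10, edgeR adjusted p 0.000491), and its slope did not (0.12, edgeR adjusted p 0.073).

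The tested noncoding RNAs of the imprinted Dlk1-Dio3 region were higher in Q111 than in Q92. Of 16 with a count, 3 were tested. All 3 were called higher at that step, against 14.2% of all genes, and 0 for the slope. AF357428 and AF357341 would not have passed the count filter without their Q111 libraries. A rise to Q111 was thus favoured, and nothing on the region as a whole is read from the 3 calls. The snoRNA AF357428 had 10 and 6 counts in Q50, 9 and 7 in Q92, then 38 and 48 in Q111, a 7.21-fold difference at the second step (edgeR adjusted p 4.84e-05). AF357341 had 3 and 7, 6 and 12, and 34 and 34 counts. Rian, whose exons hold several small RNA genes, was lowest in Q92, with 49 and 49, 11 and 22, and 29 and 56 counts, and its levels in Q50 and Q111 overlapped.

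Of 5 radial glia and progenitor mRNAs tested, 0 were called for the slope, 1 was higher in Q92 than in Q50 and 2 were lower in Q111 than in Q92, against 4.25%, 18.4% and 12.2% of all genes. Tnc, which encodes tenascin C, had 23 and 18 counts in Q50, 41 and 46 in Q92, then 6 and 6 in Q111. It fell 5.25-fold from Q92 to Q111 (edgeR adjusted p 0.000298). Fabp7, a fatty acid binding protein of radial glia, fell 2.20-fold at that step (edgeR adjusted p 0.022), with 31 and 24, 43 and 45, and 17 and 12 counts. The whole list summed to 395 and 413 CPM in Q50, 454 and 489 in Q92, then 309 and 243 in Q111, lowest in the libraries in which the histone sum was highest. The oligodendrocyte gene Mbp had 3 and 1 counts in Q111, with 0 in all 4 libraries of Q50 and Q92. The fibroblast and mesoderm list, which bears on the fibroblast feeder layer of the source mESC, had 1 to 6 counts a library. The part of these markers in the changes towards Q111 was not tested.

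The mESC of the same 3 lines gave no called slope. By edgeR 0 of 1300 genes passed, with 56 at an unadjusted p under 0.05. The spread around the fitted slope was wide, at a biological coefficient of variation of 39.7%. That spread holds departures of a line from the slope as well as differences between the libraries of a line. In each of these mESC lines replicate 1 was deeper than replicate 2. Q50 had 2136500 and 642384 counts, Q92 2134729 and 968021, and Q111 2360434 and 1149003. The slope fit had no term for the replicate, and the part of depth in the spread was not tested. Of the 15 genes called in NPC, 13 were tested in mESC, and the slope had the same sign in 9. Hist1h3b had a slope of 0.05 ± 0.15 there, Snora21 of 0.18 ± 0.12 and Snord87 of -0.01 ± 0.09. The test of the difference between NPC and mESC slopes called 0 of 579 genes by edgeR, with 36 at an unadjusted p under 0.05, and 0 by the DESeq2 Wald test. The smallest adjusted p of the difference was 0.413 (edgeR). On simulated counts this test recovered 22.9% of genes changed by a log2 of 2, so it would miss most such differences. A slope called in NPC and not in mESC is therefore not shown to differ between them.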

How the data were processed

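Small RNA sequencing (50-base single reads, TRIzol total RNA, per the labels' protocols) of 24 mouse libraries was deposited as 1 table of raw read counts per gene. The authors made these deposited counts with CASAVA 1.8, STAR and HTSeq on GRCm38.p6, per the submitters' processing notes; STAR and HTSeq versions, strand setting and treatment of reads with several matches are not given in the sources used here. An adapter or read length step is not given there either, and the counts cover all RNA classes.

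The 6 NPC libraries of Q50, Q92 and Q111 were fitted with edgeR 4.0.16 (R 4.3.3, limma 3.58.1): filterByExpr (minimum count 10, total 15), TMM scaling, quasi-likelihood tests, and Benjamini-Hochberg adjustment at 0.05 over all genes tested. A first fit had the repeat number as a covariate (4 residual degrees of freedom) and another had the line as a factor (3 residual degrees of freedom, for the steps and the departure from a straight line). The standard error was taken from the log2 value and its F statistic. CPM used the TMM-scaled library sizes. A gene that reached the minimum count in both libraries of a single line could pass the filter. Among low genes this favours a peak in that line. Of 55335 identifiers, 55154 matched GENCODE M21, and the others held 57 of 25027120 counts.

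The text names every gene called for the slope, up to 5 genes per direction by p for each step and the departure (mean of at least 10 CPM), and for each list the member with the highest CPM and the one with the smallest slope p, of which some are left out for brevity. The 8 genes with the highest mean CPM and Htt are also in the rule. Other genes of the same hosts, markers, and genes behind a count of 5 or fewer were named after their values were seen. The members and lists were chosen with earlier results of these data known. Library totals, DESeq2 1.42.0, no filter, a replicate block, other repeat codings, all 12 NPC libraries and leaving out each library were alternatives. The replicate numbers showed no pairing among the NPC libraries of Q50, Q92 and Q111. This was not checked in WT, KO and Q20 or in mESC. The tests were checked on simulated counts in which some genes were changed by a log2 of 2. The slope test recovered 77.9% of these genes, Q92 against Q50 97.7% and the departure 100%. The test of the difference between NPC and mESC slopes recovered 22.9%. Some marker counts are not reported here.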

Additional observations from a re-analysis of the deposited data

How the results depend on the processing

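The 15 genes called for the slope became 62 in a fit of all 12 NPC libraries, 26 with Q20 added, 24 without protein-coding genes and 89 with the spread taken within lines, the latter pair chosen after seeing the data. Among microRNA genes alone 4 were called. Leaving out single libraries gave 0 to 18. Called genes between Q92 and Q50 (134) were 44 without a filter, 71 by DESeq2's Wald test, 83 in the fit of all 12 libraries, 77 without protein-coding genes, and 65 to 140 without single libraries. Between Q111 and Q92 (93) the same settings gave 37, 50, 47, 56 and 39 to 142. Between Q111 and Q50 (87) they gave 28 without a filter, 52 by the Wald test and 41 to 100 without single libraries. The departure (137) gave 40, 62, 78, 60 and 55 to 160. The difference between NPC and mESC slopes stayed at 0 called genes in every setting run. The causes of these shifts were not tested. Where an arm had 1 library left, it was assumed to vary like the others.

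With the replicate number as a block, 7 genes were called for the slope, 125 between Q92 and Q50, 85 between Q111 and Q92, 91 between Q111 and Q50, and 123 for the departure. The replicate numbers showed no pairing among Q50, Q92 and Q111 in NPC: correlations of replicate deviations between lines were 0.05, -0.03 and -0.05. WT, KO and Q20 were outside this check. In WT and KO the share of counts on Rny1 was lower in replicate 2: 22.3% and 13.0% in WT, 27.6% and 15.9% in KO. A pairing of those libraries was not tested. Depth limits low genes, since 353 of 11821 genes with a count could be tested.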
